A study of Mus musculus with 6 samples.

Results

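The PYHIN genes of the mouse Ifi200 cluster lie side by side on chromosome 1, and 6 of them are described here: Ifi203, Ifi204, Ifi205, Ifi206, Ifi207 and Aim2. They were chosen by gene symbol, from an earlier look at the age difference on these same arrays, so their own age differences are given as a description, with no p-value, and support nothing. Of the 6, only Ifi204, Ifi206, Ifi207 and Aim2 (4 of 20187 genes tested) had a probe set that the platform annotation assigns to a single gene. Each had just 1 such probe set. Ifi203 and Ifi205 appear only in probe sets listed with several genes, whose values are given without assigning them to a gene. The arrays come from bone marrow stromal cells (BMSCs), the marrow cells that form bone, fat and cartilage. Cells from femurs of 3-month-old mice (young, 3 arrays) and 18-month-old mice (aged, 3 arrays) were sorted as positive for Sca-1 and CD29 and negative for CD45 and CD11b, then expanded in culture. Neither group carries a stated treatment or transgene, and the labels name no strain or sex. The labels do not say whether each array stands for its own animal, so the spread between arrays may be partly technical. Values are deposited log2 expression values, so a difference of 1 is a doubling of the signal.

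PYHIN proteins take their name from a pyrin domain, which binds other pyrin domains, and a HIN domain, which binds DNA. Most genes of the family are induced by interferon. Aim2 senses double-stranded DNA in the cytosol and, through the adaptor Pycard (ASC), activates caspase 1 in an inflammasome. Ifi204 encodes p204, a nuclear and cytosolic protein related to human IFI16 that binds the retinoblastoma protein and has been described as a partner of Runx2 in osteoblast differentiation. Ifi203, Ifi205, Ifi206 and Ifi207 encode less studied relatives. The genes are close paralogs, so a probe set of one may also read another, and every value below is uncertain in that respect.

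The promoter sequences are shown first because a short shared stretch is found in most of the cluster's genes and not in the windows searched for Aim2 and Ifi202b. The RefSeq promoter table (GRCm38.p6), which holds 250 bases before and 50 after each start, matched 12 of the 14 PYHIN genes of the cluster, all but Ifi204 and Ifi203-ps. The windows were searched for GAAANNGAA, a core of the interferon-stimulated response element (ISRE) bound by IRF factors. It was found on either strand in 4 of 6 windows of the members and 6 of 8 windows of the other PYHIN genes, where 8.56% of all 32851 windows hold it. By gene these are 4 of 5 and 5 of 7. The window of the second Mndal start holds only a match on the opposite strand, at -53. Windows of paralogs can be alike, so they are not independent cases. Below, 36 bases around the match or its closest counterpart are written 5′ to 3′ on the gene's strand, with the 9 matched letters in capitals.
Ifi206: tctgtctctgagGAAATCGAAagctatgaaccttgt
Ifi207: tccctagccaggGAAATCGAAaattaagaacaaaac
Ifi203: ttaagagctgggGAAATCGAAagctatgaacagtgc
Ifi205: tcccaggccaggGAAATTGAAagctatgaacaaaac
Ifi208: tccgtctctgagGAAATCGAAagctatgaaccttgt
Ifi213: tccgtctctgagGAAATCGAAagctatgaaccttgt
Ifi214: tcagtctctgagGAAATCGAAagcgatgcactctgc
Mndal: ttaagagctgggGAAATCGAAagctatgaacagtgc
Ifi211: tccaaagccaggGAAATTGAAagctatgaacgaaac
Ifi209: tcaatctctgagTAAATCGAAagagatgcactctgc
The Ifi206 stretch is chr1:173491335-173491370, minus strand, and the Ifi207 stretch is chr1:173741827-173741862, minus strand. The Ifi203 stretch, from the second of its 2 listed starts, is chr1:173942504-173942539, minus strand, and the Ifi205 stretch is chr1:174031866-174031901, minus strand. The others are chr1:173673595-173673630 (plus strand) for Ifi208, chr1:173599322-173599357 (minus strand) for Ifi213, chr1:173536013-173536048 (minus strand) for Ifi214, chr1:173880200-173880235 (minus strand) for Mndal, chr1:173913060-173913095 (minus strand) for Ifi211 and chr1:173630768-173630803 (plus strand) for Ifi209.

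Ifi206, Ifi207, Ifi203, Ifi208, Ifi213, Ifi214 and Mndal carry the same 9 letters, GAAATCGAA. With positions counted from 1 at the 5′ end of these letters, Ifi205 and Ifi211 differ by C6T, which the motif allows, and Ifi209 differs by G1T, which it does not. Relative to the start, the first base of the match lies at -40 in Ifi206, -41 in Ifi207, -35 in Ifi203, -36 in Mndal, -37 in Ifi211, -58 in Ifi208, -73 in Ifi213 and -79 in Ifi214. In Ifi205 it lies at -134, and another match on the opposite strand begins at 24 after the start. In a search added after these matches were seen, the exact letters GAAATCGAA were present before the start in 23 of all 32851 windows (0.070%), and 7 of those 23 were PYHIN windows. The Aim2 window has no GAAANNGAA, and its nearest counterpart differs from GAAATCGAA at 3 positions (T5C, G7T and A8T). Nor does the Ifi202b window, whose nearest counterpart also differs at 3 positions (A4C, C6T and A8T). The 250 bases before the starts of Ifi206 and Aim2, whose measured differences are the largest and the smallest of the members, are printed for comparison, with GAAANNGAA in capitals.
Ifi206: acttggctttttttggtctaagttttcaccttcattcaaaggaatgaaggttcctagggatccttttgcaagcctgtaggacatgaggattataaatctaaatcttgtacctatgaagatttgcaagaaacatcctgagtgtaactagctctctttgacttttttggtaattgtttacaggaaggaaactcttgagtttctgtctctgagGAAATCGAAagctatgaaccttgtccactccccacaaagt
Aim2: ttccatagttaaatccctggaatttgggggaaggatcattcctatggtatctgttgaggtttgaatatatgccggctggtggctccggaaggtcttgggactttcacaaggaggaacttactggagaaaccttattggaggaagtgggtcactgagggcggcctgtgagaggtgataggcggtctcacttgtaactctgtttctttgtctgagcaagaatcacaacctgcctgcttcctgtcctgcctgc
They lie at chr1:173491319-173491568 (minus strand) and chr1:173420354-173420603 (plus strand). The Aim2 window, the only one listed for it, lies inside the gene's RefSeq span, chr1:173349547-173466040. The bases before the low end of that span were not searched, so the lack of a match holds for this window only. These are matches of letters and do not show that a factor binds. Ifi209, which also lacks GAAANNGAA, differed by 2.44 between the ages, and a relation between the motif and the age difference was not tested.

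Of the other motifs searched, TTCNNNGAA, the GAS site, was in 0 of 6 member windows and in that of Ifi202b, beside 8.30% of all windows. GAGGAAGT, a site of the myeloid factor PU.1, was in the Aim2 window only among the PYHIN windows, where 3.20% of all windows hold it; its first base lies at -113. TATAAA was in 2 of 6 member windows and 5 of 8 others, beside 13.62% of all. Ifi202b has no ISRE match, so no GAS match overlapped one in these windows. Some pairs of promoters also resemble one another at length, and most do not. Over the 250 bases before the start, aligned end to end, Ifi206 was 86.2% identical to Ifi208 and 75.6% to Ifi213. Ifi207 was 85.0% identical to Ifi211, and Ifi203 (second start) 89.3% to Mndal. The closest pair, Ifi214 and Ifi209, was 94.4% identical, and only Ifi214 of the pair holds GAAANNGAA. The median of 89 pairs was 47.9%, and the closest pair with Aim2 reached 48.9%.

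**Figure D1:**
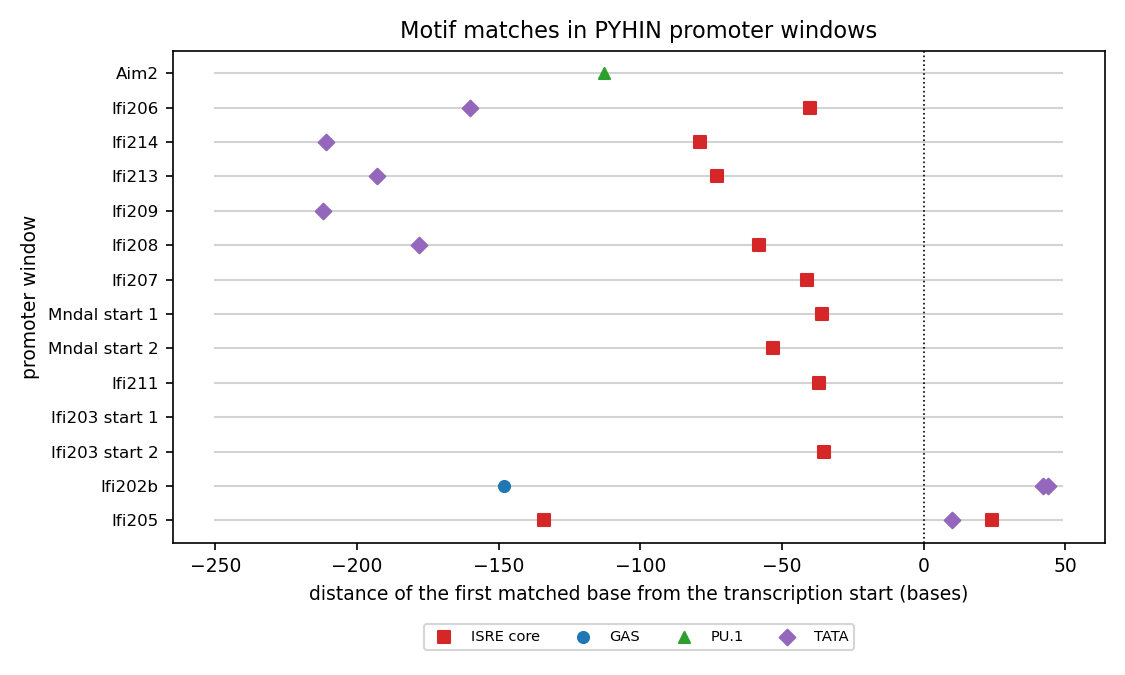
Positions of 4 motifs in the promoter windows of PYHIN genes, by the distance in bases of the first matched base from the transcription start (dotted line, with negative values before it); each row is 1 window and each point 1 match. ISRE cores (squares) fall between -79 and -35 in the rows that hold one, except at -134 and 24 in Ifi205, and are missing from Aim2, Ifi209, Ifi202b and the first start of Ifi203.

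Ifi206, Ifi207 and Ifi204 read clearly higher in the aged arrays, and Aim2 differed little. Ifi206 was the most age-divided of the 4. It read 5.65, 5.50 and 5.35 in the young arrays and 10.17, 10.20 and 10.23 in the aged arrays. The groups lie far apart, with means of 5.50 ± 0.15 (SD, n = 3) and 10.20 ± 0.03 (SD, n = 3) and a difference of 4.70 on the log2 scale. Its young values fall within the range of the negative control probe sets, of which 95% lie below 7.61, so the true ratio is not known and no fold is given.

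Ifi207 was well above the controls at both ages. It read 9.0, 9.02 and 9.0 in young and 11.60, 11.56 and 11.59 in aged arrays. The means were 9.01 ± 0.01 and 11.58 ± 0.02 (SD, n = 3 each), a difference of 2.58 or 5.97-fold. Arrays of an age were almost identical, and the groups did not overlap.

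Ifi204, the p204 gene, had bright signals in every array. It read 10.60, 10.64 and 10.77 in young and 12.19, 12.23 and 12.18 in aged arrays. The means were 10.67 ± 0.09 and 12.20 ± 0.03 (SD, n = 3 each), which gives a difference of 1.53 or 2.89-fold. The lowest aged array stood above the highest young array.

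Aim2, the inflammasome sensor, stayed dim at both ages. It read 5.57, 5.66 and 5.56 in young and 5.78, 5.79 and 5.79 in aged arrays, all within the negative control range. The groups did not overlap, yet the difference was only 0.19. That is smaller than the 0.29 by which the most shifted antigenomic probe class, which matches no mouse sequence, differed between the ages.

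**Figure D2:**
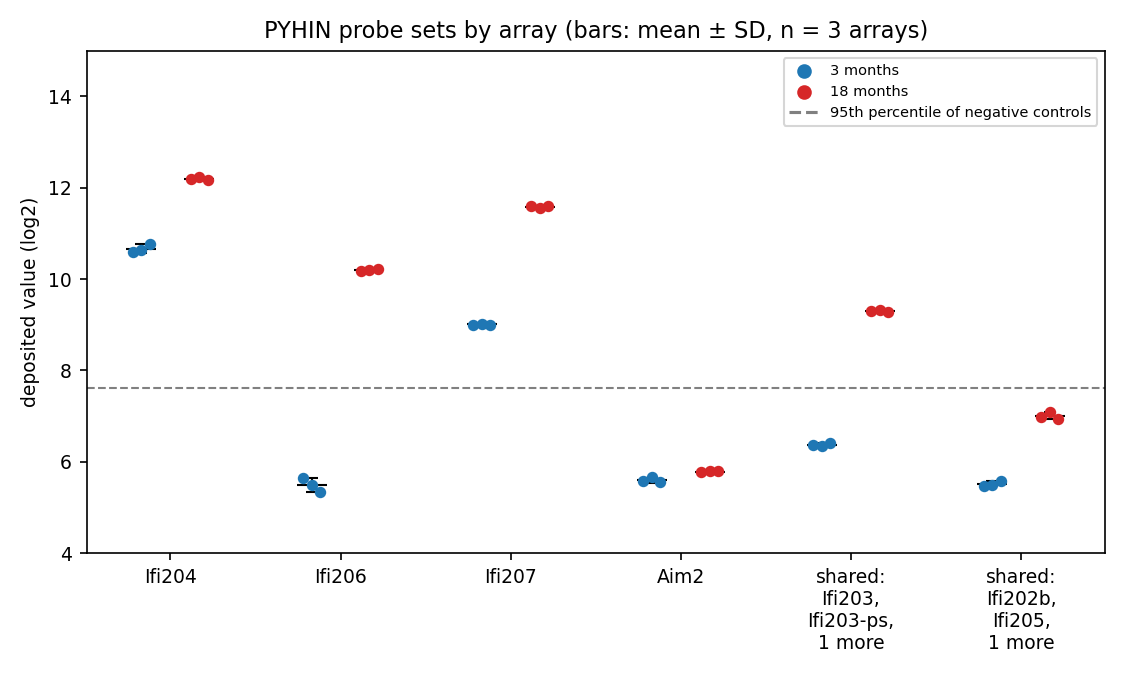
Deposited log2 value of each array for the 4 members with a single-gene probe set and the 2 shared probe sets; blue points are 3-month arrays, red points 18-month arrays, bars the mean and SD of 3 arrays, and the dashed line the 95th percentile of negative controls (7.61). Aged points lie above young points throughout, by 4.70 in Ifi206 and by 0.19 in Aim2.

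By the age test over all genes (limma, adjusted p under 0.05) 4 of the 4 measured members were higher in aged arrays, beside 18.4% of all genes tested, and all 4 had every aged array above every young array, beside 24.4%. When a minimum difference of 0.3 was required, 3 of the 4 passed, beside 5.79%. Aim2 was no longer among the 4 when any 1 aged array was left out, with a difference of 0.19 each time. The members were chosen with this contrast known, so nothing is read from these counts. Their differences ran from 0.19 to 4.70 with a median of 2.06, where the median of all tested genes was 0.01. The young arrays varied more than the aged ones in Ifi206, Ifi204 and Aim2, and not always alike: young replicate 1 was the highest for Ifi206 and the lowest for Ifi204.

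Ifi203 and Ifi205 could be seen only through probe sets they share. The probe set listed with Ifi203, its pseudogene Ifi203-ps and LOC100862473 read 6.37, 6.35 and 6.41 in young and 9.30, 9.32 and 9.27 in aged arrays, a difference of 2.92. Its young mean lies within the negative control range, so the size of this difference is uncertain. The probe set listed with Ifi202b, Ifi205 and LOC100044068 read 5.48, 5.49 and 5.58 in young and 6.99, 7.09 and 6.94 in aged arrays, a difference of 1.49 with both means within the negative control range. In both, every aged array was above every young array. Which of the listed genes gives these signals was not tested.

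Other PYHIN genes of the cluster also read higher in aged arrays. Ifi203-ps, Mndal and Ifi211, whose young means were above the filter on low values (5.40), passed the test (limma, adjusted p = 2.77e-09, 2.97e-09 and 1.34e-08) and a minimum difference of 0.3, which 18.4% and 5.79% of all genes did in this direction. Ifi203-ps, annotated as a pseudogene, went from 6.82 ± 0.03 to 9.85 ± 0.10 (SD, n = 3 each), and Mndal from 6.81 ± 0.04 to 9.05 ± 0.03. Ifi211, which RefSeq also lists as Mnda, was bright at both ages and rose 2.50-fold, from 10.45 ± 0.05 to 11.76 ± 0.02. Ifi213 rose from 4.91 to 7.81, Ifi209 from 4.70 to 7.14 and Ifi208 from 5.31 to 6.95. The young means of these 3 lay under the filter, so they entered the test only through their aged arrays and are not counted as support. Nor are Ifi203-ps, Mndal and Ifi211, since the family was chosen with this contrast known and their probe sets may read the members. With no filter, all 6 passed. Ifi208 and Ifi209 were within the negative control range at both ages. Ifi202b, which lacks a pyrin domain and restrains Aim2, and Ifi214 had no single-gene probe set and were not analysed here.

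**Figure D3:**
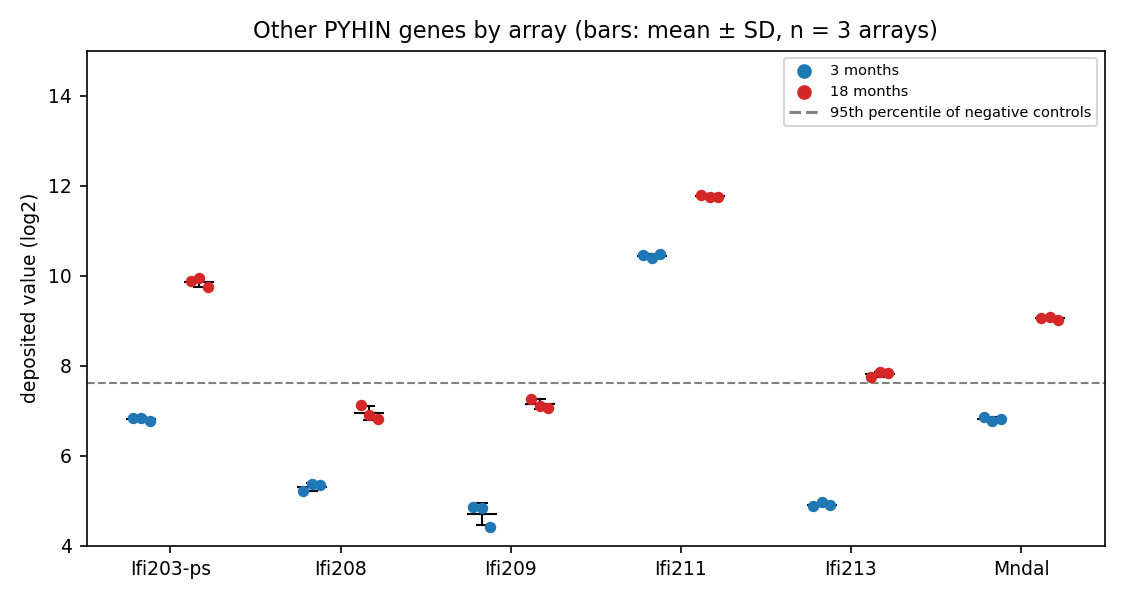
Deposited log2 value of each array for the 6 other PYHIN genes; blue points are 3-month arrays, red points 18-month arrays, bars the mean and SD of 3 arrays, and the dashed line the 95th percentile of negative controls (7.61). The groups are apart in all 6, and only Ifi211 starts above the line.

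The plot of all differences sets these genes among the tested genes. Where the young mean lies within the negative control range, as in Ifi206 and 5 of the 6 other PYHIN genes, the size of the difference and so its place in the plot are uncertain.

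**Figure D4:**
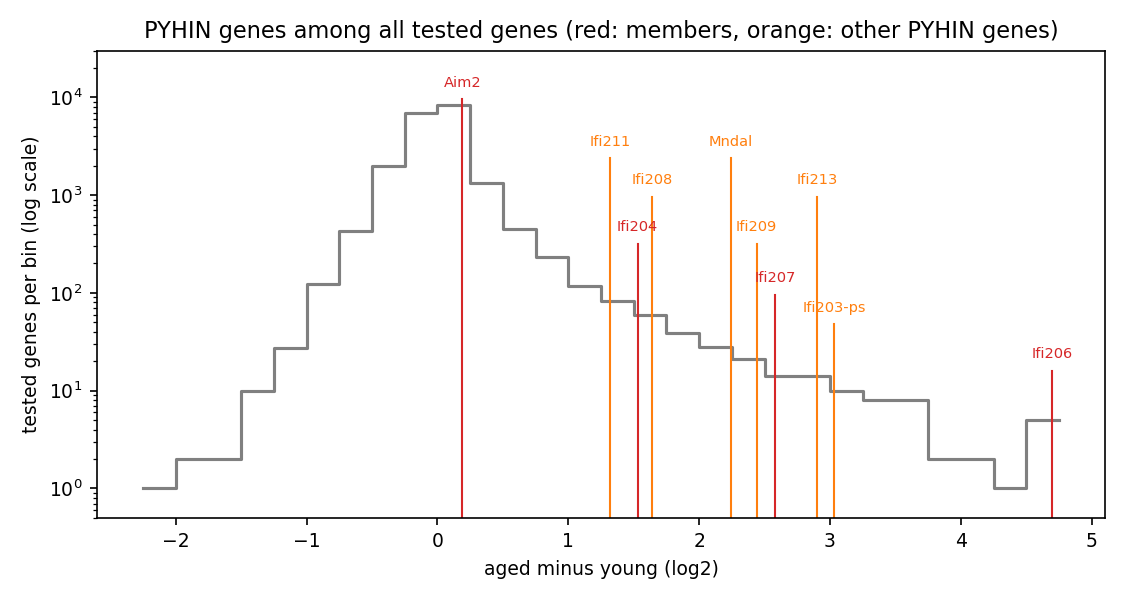
Number of tested genes (log scale) per bin of 0.25 of the aged minus young difference on the log2 scale (grey line), with the 4 measured members (red) and the 6 other PYHIN genes (orange) marked at their own difference; the height of a marker has no meaning. Aim2 sits in the bulk at 0.19 and the rest lie between 1.32 and 4.70.

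Genes on either side of the cluster were dim at both ages, and none with a value showed a rise of the size seen in Ifi206. The 10 nearest protein-coding genes on each side were taken from the RefSeq order, and 15 of these 20 are olfactory receptor genes. Of the 19 with a value, differences ran from -0.27 to 0.17 with a median of 0.03, and no group mean exceeded 5.95, so all were within the negative control range. Only 2, Cadm3 and Olfr231, passed the filter on low values, and neither passed the test (limma, adjusted p = 0.340 and 0.331). With signals this low, a fall, or a change that stays under the background, could not be seen in the flanking genes. A large rise from such a level can be seen on these arrays, as in Ifi206 (5.50 to 10.20) and Ifi213 (4.91 to 7.81). Aim2 is the outermost PYHIN gene on one side, next to Ifi206, whose measured difference is the highest.

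**Figure D5:**
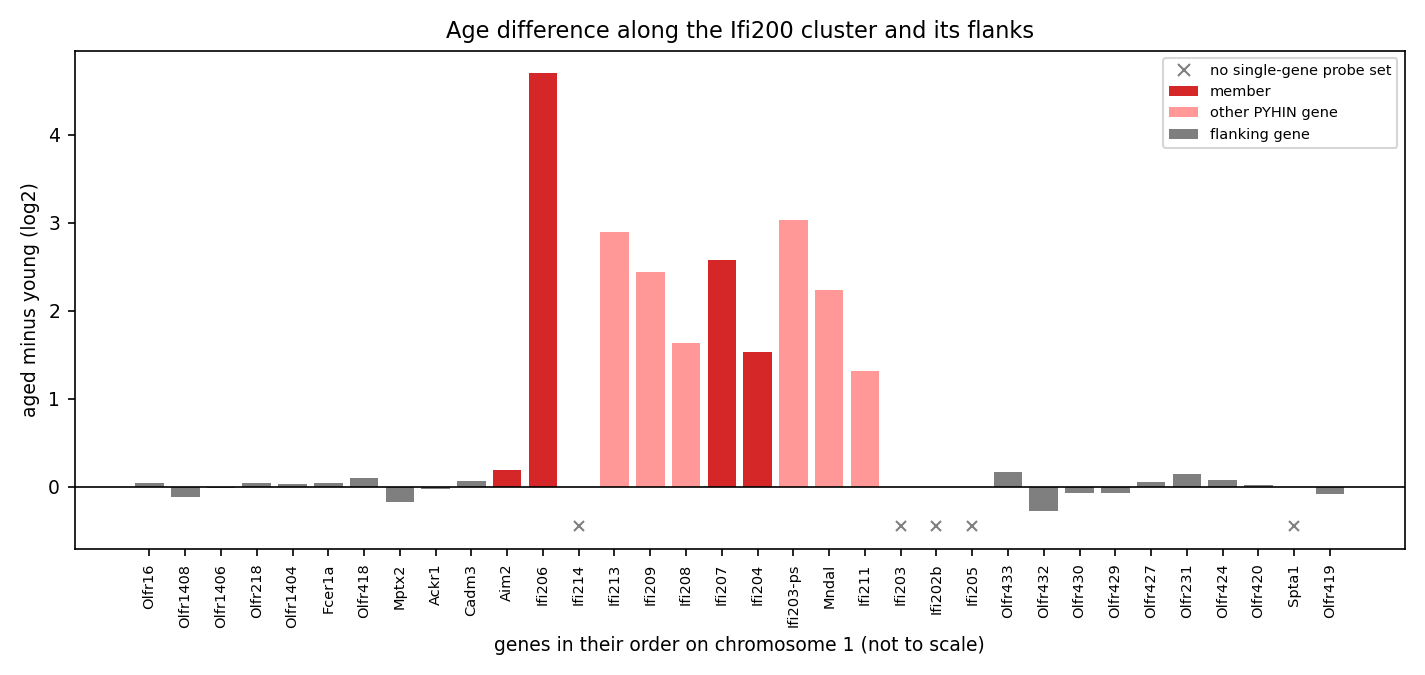
Aged minus young difference on the log2 scale for the PYHIN genes and 10 protein-coding genes on each side, in chromosome order and not to scale; bars are differences between means of 3 arrays (red for members, pink for other PYHIN genes, grey for flanking genes) and crosses mark genes with no single-gene probe set. Differences from 1.32 to 4.70 fill the cluster from Ifi206 to Ifi211, and Aim2 and the flanks lie between -0.27 and 0.19.

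Genes that act with PYHIN proteins differed with age unevenly. In the inflammasome list, Casp1, Casp4, Casp8, Gsdmd and Il18 were higher in aged arrays, and the other tested genes did not pass. Of 16 genes 10 were tested, 5 rose and 5 did not pass (18.4% of all genes were higher and 22.1% lower), and the list's median difference was 0.22. With a minimum difference of 0.3, 4 were higher and 0 lower, and Casp8 no longer passed. Of all 20187 genes, 1985 passed that rule in either direction and 5.79% were higher. Casp1, the protease that Aim2 activates, read 7.67, 7.54 and 7.28 in young and 9.62, 9.63 and 9.58 in aged arrays (difference 2.11; limma, adjusted p = 2.14e-07), and its young mean is no brighter than negative controls can be. Gsdmd, the pore protein cut by inflammatory caspases, rose 1.89-fold, Casp4 rose 1.53-fold and Casp8 rose 1.24-fold. Il18, a cytokine that caspase 1 matures, rose from 5.73 to 6.58, though both means are no higher than negative controls can be.

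Pycard, which links Aim2 to caspase 1, was at 5.59 ± 0.11 and 5.71 ± 0.07 (SD, n = 3 each) and did not pass (limma, adjusted p = 0.248). Both Pycard means lie within the negative control range. Nlrp3, Nlrc4, Nlrp1a, Nlrp1b, Mefv and Il1b were left out by the filter on low values. Their group means lay between 4.17 and 5.28. Ninj1, which ruptures the membrane of dying cells, was at 8.28 and 8.30, and Nek7, a partner of Nlrp3, at 10.07 and 10.05, and neither passed (limma, adjusted p = 0.736 and 0.624).

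Of 20 cytosolic DNA sensing genes 19 were tested, 8 rose, 7 fell and 4 did not pass, and the median difference was -0.01. Among all genes tested, 18.4% were higher and 22.1% lower. With a minimum difference of 0.3, 4 were higher and 1 lower, beside 5.79% of all genes higher and 1985 of 20187 in either direction. Zbp1, a sensor of Z-form nucleic acids, rose from 7.23 ± 0.10 to 10.88 ± 0.01 (SD, n = 3 each; limma, adjusted p = 1.47e-09), where its young mean is within the negative control range. Samhd1, which degrades nucleotides, rose 2.24-fold, Adar, an RNA-editing enzyme, rose 1.53-fold and Xrcc5, the Ku80 subunit, rose 1.40-fold. Dhx36, a helicase, fell by 0.50 on the log2 scale. Sting1, the adaptor on which DNA sensing by Cgas converges, was chosen after its values were seen and rose 1.35-fold (limma, adjusted p = 5.28e-05). It did not pass the minimum difference. Cgas itself went from 7.40 to 7.27 and did not pass (limma, adjusted p = 0.0590). Both Cgas means lie within the negative control range.

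Interferon signalling is the route that induces most PYHIN genes. Of 20 interferon signalling genes 17 were tested, 13 rose, 1 fell and 3 did not pass, and the median difference was 0.35. Among all genes tested, 18.4% were higher and 22.1% lower. With a minimum difference of 0.3, 7 were higher and 0 lower, beside 5.79% of all genes higher and 1985 of 20187 in either direction. Irf7 read 7.69, 7.68 and 7.56 in young and 10.92, 10.92 and 10.94 in aged arrays (limma, adjusted p = 7.54e-10). Stat2 and Irf9, transcription factors of interferon signalling, rose 4.35-fold and 2.46-fold. Usp18, an inhibitor of the interferon receptor, rose 7.56-fold, and the ubiquitin-like protein gene Isg15 rose from 6.64 to 8.44, its young mean being within the negative control range.

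Of the interferon genes themselves, only Ifnb1 and Ifng were in the list. Ifnb1 (means 4.79 and 4.87) and Ifng (4.20 and 4.30) were dim and left out by the filter. The single gene that fell was Ifnar1, a receptor chain, by 0.14 on the log2 scale.

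Of 22 genes listed for reported links to p200 proteins 19 were tested, 6 rose, 4 fell and 9 did not pass. The median difference was 0.09, and among all genes tested 18.4% were higher and 22.1% lower. With a minimum difference of 0.3, 4 were higher and 1 lower, beside 5.79% of all genes higher and 1985 of 20187 in either direction. Cdkn1a, the cell cycle inhibitor p21, rose 2.01-fold. The Id proteins, inhibitors of helix-loop-helix factors that p204 is described to bind, rose together: Id2 from 6.49 to 8.05, Id3 from 6.89 to 8.28, and Id1 1.46-fold. The young means of Id2 and Id3 were within the negative control range. Rb1, the retinoblastoma gene, fell by 0.54 on the log2 scale in its brightest probe set (limma, adjusted p = 5.30e-06). Its other probe sets were dim, at mean levels of 5.37 and 3.19 with differences of -0.05 and 0.21, and with the mean of all 3 the difference was -0.13 and did not pass. Runx2 and Trp53 had no single-gene probe set and were not analysed here.

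The genes most like each measured member were found by the root mean square distance of values centred on each gene's mean over the 6 arrays, among tested genes outside the family. Il1rn, the interleukin 1 receptor antagonist, was nearest to Ifi206 (distance 0.054 on the log2 scale) and the double-stranded RNA sensor gene Oas2 next (0.087). Nearest to Ifi207 were Sp100 (0.037), a nuclear body protein, and Tmem106a (0.043). Nearest to Ifi204 were Postn (0.055), the matrix protein periostin, and Apol6 (0.057). Aim2 was nearest to Xiap (0.012) and Hes1 (0.013), which differed by 0.20 and 0.18 between the ages. With 6 arrays in 2 groups, this likeness mainly records an age difference of the same size.

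Several PYHIN genes are abundant in macrophages and other blood cells, so markers of those cells were read beside them. The marker counts stand beside 18.4% of all genes tested higher and 22.1% lower. With a minimum difference of 0.3, only 4 stromal, 1 neutrophil and 1 endothelial marker passed, all higher, beside 5.79% of all genes. Of 13 macrophage and monocyte markers 8 were tested and 2 passed the test, Cd14 and Fcer1g, higher by 0.35 and 0.30. All 13 lay within the negative control range, Ptprc (CD45) at 3.65 and 3.62 and Itgam (CD11b) at 5.26 and 5.24. Summed on the linear scale, these markers read 704 to 716 in young and 736 to 745 in aged arrays. Dendritic markers summed to 212 to 215 and 200.3 to 202, with 1 of 2 lower. B cell markers summed to 211 to 243 and 236 to 242, and the 3 tested did not pass. T and NK cell markers summed to 272 to 299 and 289.5 to 303, with 1 of 3 higher. Neutrophil markers summed to 254 to 309.5 and 349.5 to 363, with 2 of 4 higher, and endothelial markers to 156 to 159.8 and 194.5 to 202, with 1 of 2 higher. All tested markers of these types were within the negative control range at both ages. The stromal markers also moved: 5 of 9 tested were higher and 2 lower, and their sum was 18576 to 18985 in young and 26528 to 27069 in aged arrays. Cxcl12 was higher by 2.25, Vcam1 by 1.01, Col1a1 by 0.79, Col1a2 by 0.57 and Pdgfrb by 0.20, and the difference was -0.54 for Nt5e and -0.10 for Itgb1. The part of these shifts in the PYHIN differences was not tested. Col1a1, Col1a2, Pdgfrb and Itgb1 were above 11 in every array. The means of Thy1, Eng, Nt5e and Lepr were within the negative control range at both ages. The Sca-1 gene, Ly6a, lacked a single-gene probe set. Fewer cells of a type and less RNA per cell cannot be told apart in such bulk samples.

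Across the series, array medians lay between 5.39 and 5.44, and r across genes was 0.995 to 0.999 within an age and 0.976 to 0.978 between ages. The median negative and positive control probe sets differed by -0.26 and -0.15 between the ages, and antigenomic classes by 0.01 to 0.29. Precision is limited by having 3 arrays of each age. The labels do not tell whether both ages were cultured and hybridised together, so age cannot be told apart from batch.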

How the data were processed

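Total RNA of 6 samples was measured on Affymetrix arrays. The authors deposited log2 expression values per probe set; MAS5 (no version) is the tool in the submitters' processing notes, and further steps are not given in the sources used here. Values were used as deposited. Symbols of the platform annotation were updated through the RefSeq table (GRCm38.p6): of 65956 transcript clusters 31258 had 1 gene, of which 31256 matched, 1492 had several and 33206 had none. Per gene the probe set with the highest mean was kept, and genes with a mean under the median of all transcript clusters (5.40) were left out. Aged and young arrays were compared with limma 3.58.1 in R 4.3.3 (lmFit, eBayes with trend, Benjamini-Hochberg), and by treat with a minimum difference of 0.3. The test was also run on simulated data with independent noise for each gene, and the outcome is not given here. That run cannot show how batch or technical replicates affect the p-values. Single-gene exact tests cannot pass 0.05 with 3 against 3 arrays. Promoters were aligned end to end with Biopython 1.88; motifs were searched on both strands. Protein identity was planned and not run. Figures used matplotlib 3.10.9.

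Groups and replicate numbers came from the sample titles. Members, lists and tests were chosen with earlier results of these arrays known. Named genes are the members, the other PYHIN genes, up to 5 passing genes per list with the smallest p, and the 2 nearest genes per member. Sting1, Cgas, Pycard, Ifnar1, Ninj1, Nek7 and the dim genes were named beyond this rule, after their values were seen. The alternatives tried were median centring, quantile normalization, a filter at the 70th percentile or none, the mean of all probe sets, every probe set tested, no trend, robust estimation, a replicate block, and each array left out.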

Additional observations from a re-analysis of the deposited data

Results flagged for a closer look

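Probe sets that are listed with several genes stand outside the gene tests, and 2 of them hold PYHIN genes and read higher in aged than in young arrays. TC0100003891.mm.1, listed with Ifi203, differed by 2.92 on the log2 scale. TC0100003599.mm.1, listed with Ifi202b and Ifi205, differed by 1.49. No test was run on either, and neither value belongs to a single gene. The young means of both lie within the negative control range, so the sizes of these differences are uncertain.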

How the results depend on the processing

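The differences of Ifi204, Ifi206, Ifi207 and Aim2 kept their sign under every alternative that tested them, with ranges of 1.496 to 1.59, 4.63 to 4.78, 2.57 to 2.62 and 0.18 to 0.22. The other PYHIN genes passed under every alternative that tested them, and none of these 6 is counted as support. The filter at the 70th percentile tested and called only 3 of the 6, since the rest fell under it, and it left out Aim2. With only the bases before the start, TATAAA was in 1 member window. With the replicate block, 7728 genes passed in place of 8195. The same-numbered arrays did not deviate together (r across genes of -0.05, 0.07 and 0.02), so the numbers pair nothing here. Leaving out 1 array gave 6715 to 9303 genes past the test and 3 or 4 of the members, Aim2 being the one lost. As the members were chosen with this contrast known, nothing is read from their counts. Median centring gave 3958 genes higher and 3842 lower in place of 3724 and 4471. Signals within the negative control range at both ages limit what Aim2, Pycard, Cgas, Il18, Nt5e and the flanking genes can show. The young levels of Ifi206, of 5 other PYHIN genes, of the 2 shared probe sets and of Casp1, Zbp1, Isg15, Id2 and Id3 are limited in the same way. Those of Irf7 and Cxcl12 (7.65 and 7.63) are at the edge of that range.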
